A study of Mus musculus with 9 samples.

Results

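The 10 genes described here encode the transcription factor NF-kB and the proteins that hold it in check. They are the subunits Nfkb1, Nfkb2, Rel, Rela and Relb, the IkB inhibitors Nfkbia, Nfkbib, Nfkbie and Nfkbid, and the ubiquitin-editing feedback inhibitor Tnfaip3. They were chosen by gene symbol, and all 10 were found among the 46078 genes of the count table and were tested. RNA 3′ ends were sequenced from 6 samples of thymic T cell lymphoma induced by MYCN and from 3 samples of splenic CD4+ T cells, all from C57BL/6J mice. MYCN is a close relative of the oncoprotein MYC and regulates transcription. The groups are called lymphoma (34, 53, 56, 70, 72 and 86, by the numbers in their labels) and CD4 (1, 2 and 3). The labels give no age, no treatment and no promoter or cell type that drives MYCN, and they do not say whether the samples came from separate animals, so p-values measure the spread between these samples only. The comparison is lymphoma against CD4.

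NF-kB is a dimer of Rel family subunits. In resting cells IkB proteins keep it in the cytoplasm. A signal from the antigen receptor, from tumour necrosis factor (TNF) receptors or from innate sensors activates the IkB kinase (IKK) complex, which marks IkB proteins for destruction and frees the dimer to enter the nucleus. Its targets include the genes of its own subunits and inhibitors, so the pathway feeds back on itself. In a slower, non-canonical branch, signals through receptors such as CD40 stabilise the kinase encoded by Map3k14, the precursor made by Nfkb2 is processed, and the product pairs with the product of Relb. In mature T cells NF-kB is known for its part in activation, survival and the upkeep of regulatory T cells.

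Stretches around annotated starts of the members that hold a match to the kappa B consensus, the sequence that NF-kB dimers bind, are shown because 6 of the 8 members with a promoter window held one. Windows came from RefSeq (GRCm38.p6) and ran from 250 bases before to 50 bases after an annotated start. The consensus is 10 bases long, a run of G and a purine, a variable centre, then pyrimidines and a run of C. It was searched on both strands, and overlapping matches were merged. Each stretch is written 5′ to 3′ on the gene's strand, with the matching bases in capitals. The first, second and last of the Nfkb2 stretches lie wholly within exons of GENCODE M21 and the others listed hold no exonic base.
Rel, chr11:23771031-23771081, minus strand: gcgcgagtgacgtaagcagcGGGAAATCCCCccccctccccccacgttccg
Nfkb2, chr19:46304689-46304717, plus strand: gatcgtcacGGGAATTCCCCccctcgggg
Nfkb2, chr19:46304717-46304736, plus strand: gggccgaaaGGGGCTTTCCc
Nfkb2, chr19:46305445-46305488, plus strand: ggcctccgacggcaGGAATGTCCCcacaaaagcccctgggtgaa
Nfkb2, chr19:46305696-46305723, plus strand: ggtattttcGGGACTTTCCtaagcagca
Nfkbia, chr12:55492648-55492696, minus strand: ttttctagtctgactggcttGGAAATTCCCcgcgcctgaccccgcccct
Nfkbie, chr17:45555574-45555623, plus strand: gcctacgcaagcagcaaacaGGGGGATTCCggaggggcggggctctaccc
Nfkbid, chr7:30422160-30422254, plus strand: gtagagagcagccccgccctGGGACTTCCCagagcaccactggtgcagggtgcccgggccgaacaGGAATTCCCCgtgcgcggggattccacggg
Tnfaip3, chr10:19015517-19015544, minus strand: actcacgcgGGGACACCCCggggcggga
Tnfaip3, chr10:19015411-19015431, minus strand: atttccatcGGAAATCCCCct

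The match in Nfkbia was centred 24 bases before the start, and the match in Nfkbie 101 bases before it. In Rel the overlapping matches were centred 86 and 87 bases before the start. Tnfaip3 had a match 7 bases before the RefSeq start and another 120 bases before it. By GENCODE M21 both lie inside the span of the gene, as do the stretches of Nfkbid and Nfkb2. The windows of Rela and Nfkbib held no match. Nfkb1 and Relb had no window. Of all 27025 genes with a window, 9.55% held a match, and of the 9849 tested genes with a window 12.1% did. The share was 12.9% among tested genes lower in lymphoma and 11.4% among those higher, and 12.2% among those not called. With A or T required at the centre the same 6 members held a match, against 5.14% of all genes. Nfkb2 has 3 windows, Nfkbid 3 and Tnfaip3 2, so they had more sequence to match in. A match of letters is not evidence that the factor binds.

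Levels are given as counts per 1000000 (CPM) of the library size after scaling by TMM, a method that assumes that most genes do not change. Between 11170704 and 15769679 reads per lymphoma and between 8099960 and 10808828 per CD4 library were counted in genes. A principal component holding 60.1% of the variance separated the groups, and the second, with 13.6%, set lymphoma 53 apart from the other 8 libraries. Lymphomas 34, 70 and 72 shared Trbv12-1 as their most counted T cell receptor beta V segment, while the other lymphomas had fewer than 20 such counts. Xist ranged from 4.66 to 11.3 CPM in lymphoma and from 493 to 582 CPM in CD4, and the Y-linked gene Ddx3y from 119 to 178 CPM and from 0.191 to 0.734 CPM. Sex, tissue of origin and disease therefore cannot be told apart. In such bulk samples, fewer cells of a type and less RNA per cell cannot be told apart either.

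The labels were compared with cell type markers, because other cells also make NF-kB transcripts. Of 10 T cell markers, 8 did not pass the test. The summed level of all 10 was 2231 to 4620 CPM in lymphoma and 3356 to 3509 CPM in CD4. Cd4 itself was lower in lymphoma, at 6.04 to 71.9 CPM against 199 to 263 CPM. Cd2 was also lower, at 98.8 to 279 CPM against 289 to 309 CPM. The CD4 libraries also held B cell transcripts. All 10 B cell markers were higher in CD4, with a summed level of 1254 to 1514 CPM against 6.85 to 13.4 CPM in lymphoma. Of 10 dendritic cell markers, 8 were higher in CD4, with sums of 268 to 282 CPM against 17.2 to 37.4 CPM. Of 6 regulatory T cell markers, 3 were higher in CD4, and Foxp3 stood at 68.6, 26.2 and 27.4 CPM in CD4 against at most 0.433 CPM in a lymphoma. Of 10 myeloid markers, 4 were higher in CD4, with sums of 799.5 to 1018 CPM against a wide 69.8 to 2177 CPM in lymphoma. S100a8 and S100a9 made up most of the sum in lymphoma 56 (1035 and 989 CPM) and in lymphoma 34 (264 and 396 CPM). Of 6 NK cell markers, 3 were higher in CD4 and 1, Gzma, in lymphoma, and Ncr1 was at 0 in every lymphoma (sums of 139 to 159 CPM in CD4 and 316 to 803 CPM in lymphoma). Most of the lymphoma sum was Gzma alone, at 298 to 785 CPM, against 63.3 to 73.9 CPM in CD4. Of 5 tested stromal and thymic epithelial markers, 2 were higher in lymphoma and 1 in CD4 (sums of 86.3 to 158 CPM in lymphoma and 204 to 217 CPM in CD4). Dcn was at 0 in every CD4 library. Cdh5, Foxn1 and Psmb11 had too few counts to be tested. Cdh5 had 0, 5 and 38 counts in CD4 1, 2 and 3 and 0 in every lymphoma. Foxn1 had 4 and 2 counts in lymphomas 34 and 72 and 0 in every other library. Psmb11 had 1, 3 and 34 counts in CD4 1, 2 and 3 and 0 to 5 in lymphoma. The 1 higher in CD4 was Pecam1, which made up most of the CD4 sum (186 to 199 CPM, against 59.3 to 81.3 CPM in lymphoma). The 2 higher in lymphoma were Dcn and Epcam. Of 5 tested erythroid markers, 0 passed the edgeR test, while 1 had an unadjusted p under 0.05 and 1 passed with DESeq2 and with limma voom (9.97 to 632 CPM in lymphoma and 70.2 to 241 CPM in CD4). The part of these cells in the results below was not tested.

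**Figure D1:**
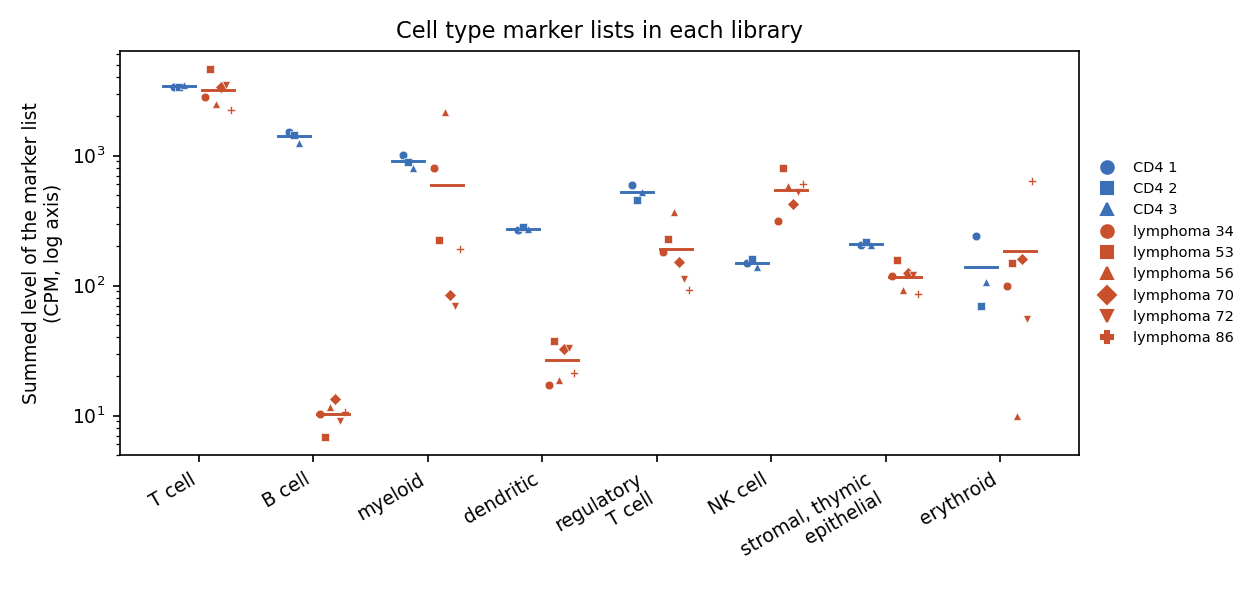
Summed level of 8 cell type marker lists (vertical axis, CPM, logarithmic) in each library; points are libraries and bars are group means. The B cell list lies between 1254 and 1514 CPM in the CD4 libraries and at or below 13.4 CPM in every lymphoma.

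Of the 10 members, 9 were lower in lymphoma and 0 were higher by edgeR's quasi-likelihood test with a Benjamini-Hochberg adjusted p under 0.05 over all 15401 tested genes. The number higher was 0 also at an unadjusted p under 0.05, with DESeq2 and with limma voom. Over all tested genes 46.6% were called, 21.9% as lower and 24.7% as higher. A fall of at least 2-fold was met by 8 members, against 17.2% of all tested genes. In 8 members every lymphoma lay below every CD4 library, against 22.3% of all tested genes and 44.9% that did not overlap in either direction. The median log2 fold change of the members was -1.94 and that of all tested genes 0.04. The number lower was 8 or 9 when any 1 library was left out, and 9 with lymphoma 53 and CD4 3 both left out.

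**Figure D2:**
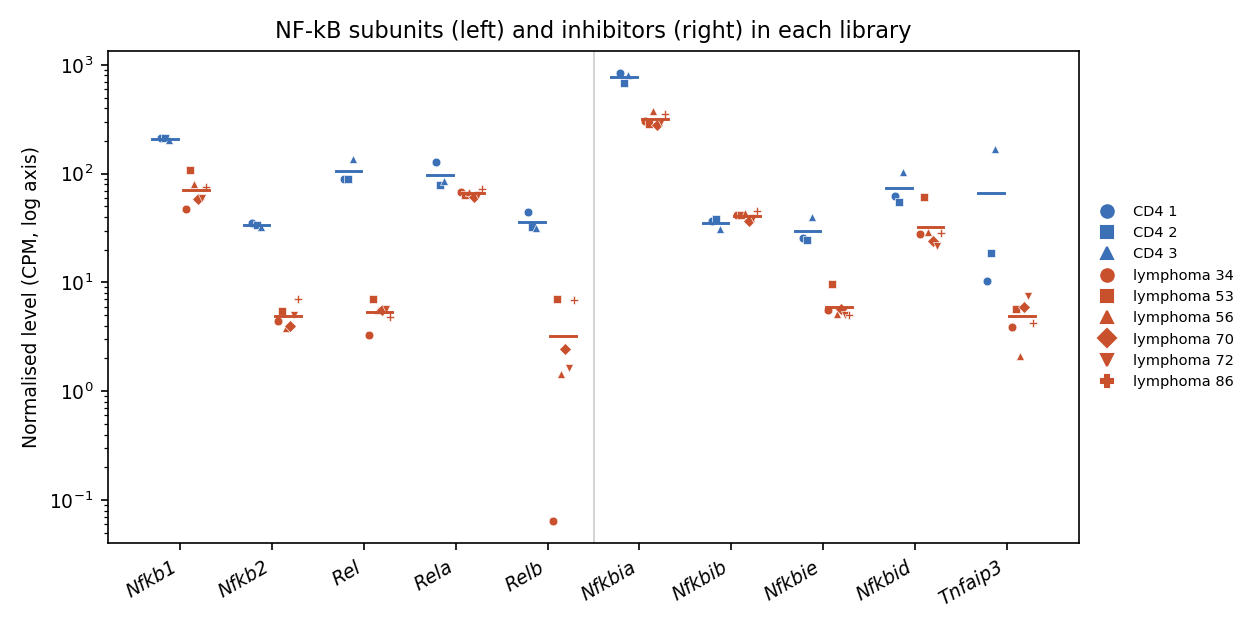
Level of each member (vertical axis, CPM, logarithmic) in every library, subunits to the left of the grey line and inhibitors to its right; points are libraries and bars are group means. Rel, Nfkb2 and Relb show the widest gaps between the groups among the subunits, and Tnfaip3 in CD4 3 stands at 170 CPM.

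Rel, which encodes c-Rel, a subunit closely tied to lymphocyte activation, had the largest fall of the members in the edgeR fit, while with limma voom Relb fell more (log2 fold change -4.46, against -4.32 for Rel). Its level was 89.9, 88.9 and 136 CPM in CD4 1, 2 and 3, and in lymphoma it ran from 3.29 CPM (lymphoma 34) over a median of 5.58 to 7.03 CPM (lymphoma 53). Every lymphoma was therefore more than 10-fold below the lowest CD4 library. Its log2 fold change was -4.30 (SE 0.234, edgeR adjusted p 2.05e-07), a 19.7-fold difference, and 3.03% of tested genes had a change as low or lower. The gene lies on chromosome 11 (23736847 to 23770970, minus strand, GRCm38).

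Rela encodes the main transactivating subunit of the canonical dimer, and it behaved unlike Rel. Its level was 127, 78.0 and 85.9 CPM in CD4, and 61.4 to 72.5 CPM in lymphoma with a median of 65.8. The groups did not overlap, but the gap between CD4 2 and lymphoma 86 was small. The log2 fold change of Rela was -0.55 (SE 0.172, edgeR adjusted p 0.0201). It was -0.29 without CD4 1, the library with the highest level, and no longer passed (edgeR adjusted p 0.159). The call was also lost without lymphoma 70 (adjusted p 0.0555) and with lymphomas 34, 70 and 72 summed to 1 library (0.0741). Among the lymphomas Rela was the steadiest member, with a coefficient of variation of 6.37%.

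Relb encodes the transactivating subunit of the non-canonical dimer. Its level was 44.4, 32.0 and 31.6 CPM in CD4, and it ran in lymphoma from 0.0645 CPM (lymphoma 34) over a median of 2.04 to 7.03 CPM (lymphoma 53). Lymphoma 34 had 1 Relb count, which is under the 3 counts taken as the limit of detection, while lymphomas 53, 56, 70, 72 and 86 had 77, 20, 40, 25 and 95. Lymphomas 53 and 86 were high and the other 4 low, and all lay below every CD4 library. Relb fell by 3.48 on the log2 scale (SE 0.791, edgeR adjusted p 0.00466), and its log2 fold change was -3.19 without lymphoma 34. Its coefficient of variation of 91.2% among lymphomas was the largest of the 10 members.

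Nfkb1 and Nfkb2 encode the precursors that yield the DNA-binding partners of the transactivating subunits. Nfkb1 stood at 213, 213 and 204 CPM in CD4 and at 47.7 CPM (lymphoma 34) to 107 CPM (lymphoma 53) in lymphoma, with a median of 67.1. Its log2 fold change was -1.56 (SE 0.220, edgeR adjusted p 0.000139). Nfkb2 stood at 34.9, 33.6 and 32.5 CPM in CD4 and at 3.78 CPM (lymphoma 56) to 7.0 CPM (lymphoma 86) in lymphoma, with a median of 4.74. The CD4 libraries were alike for both genes, with coefficients of variation of 2.42% and 3.64%, and the lymphomas did not overlap them. The log2 fold change of Nfkb2 was -2.76 (SE 0.245, edgeR adjusted p 4.84e-06). Of the exonic bases of Nfkb2, 18.1% overlap other genes in GENCODE M21, and 299 bases in its last kilobase are shared with Psd on the opposite strand. The strand setting of the counting is not given in the sources used here, so reads from that stretch cannot be assigned with certainty.

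Nfkbia encodes IkB alpha, the inhibitor that NF-kB itself induces most promptly. Its level was 840, 684 and 806 CPM in CD4, and 283 to 373 CPM in lymphoma with a median of 302. The groups stood well apart and both were tight. Nfkbia fell by 1.29 on the log2 scale (SE 0.142, edgeR adjusted p 2.32e-05).

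Nfkbib encodes IkB beta, an inhibitor that is less tied to this feedback, and it was the member that did not pass the test. Its level was 36.5, 38.2 and 31.2 CPM in CD4, and 36.6 to 45.3 CPM in lymphoma with a median of 41.6. The groups overlapped. The log2 fold change of Nfkbib was 0.22 (SE 0.156, edgeR adjusted p 0.265), and its sign was the same under the other 3 scalings. A difference of this size was within the spread between libraries, which does not show that the levels were equal. Of the exonic bases of Nfkbib, 314 in its last kilobase overlap Ccer2 on the opposite strand, with the same uncertainty as in Nfkb2.

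Nfkbie encodes IkB epsilon, which in lymphocytes mainly holds c-Rel and RelA dimers. Its level was 25.8, 24.6 and 39.6 CPM in CD4, and 4.98 CPM (lymphoma 86) to 9.59 CPM (lymphoma 53) in lymphoma with a median of 5.35. Lymphoma 53 was the high library among the lymphomas and still lay below every CD4 library. Nfkbie fell by 2.32 on the log2 scale (SE 0.281, edgeR adjusted p 4.56e-05).

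Nfkbid encodes IkB NS, an atypical nuclear IkB that acts on transcription of NF-kB targets. Its level was 63.0, 55.0 and 104 CPM in CD4, and in lymphoma it ran from 21.8 CPM (lymphoma 72) over a median of 28.2 to 60.6 CPM (lymphoma 53). The groups overlapped through lymphoma 53 alone, and the other 5 lymphomas were at 29.4 CPM or below. The log2 fold change of Nfkbid was -1.21 (SE 0.313, edgeR adjusted p 0.00773), and -1.50 without lymphoma 53. Without CD4 3, its highest CD4 library, it was -0.87 and did not pass (edgeR adjusted p 0.0650).

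Tnfaip3 encodes an enzyme that edits ubiquitin chains and shuts off signalling to IKK, and it is itself an NF-kB target. Its level was 10.2, 18.8 and 170 CPM in CD4 1, 2 and 3, and 2.11 CPM (lymphoma 56) to 7.46 CPM (lymphoma 72) in lymphoma with a median of 5.01. CD4 3 was 9.02-fold above CD4 2, while the lymphomas all lay below CD4 1. The log2 fold change of Tnfaip3 was -3.75 (SE 0.743, edgeR adjusted p 0.00225). Without CD4 3 it was -1.55 (SE 0.454, edgeR adjusted p 0.0211), so the direction and the call held while the size rested on that library.

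**Figure D3:**
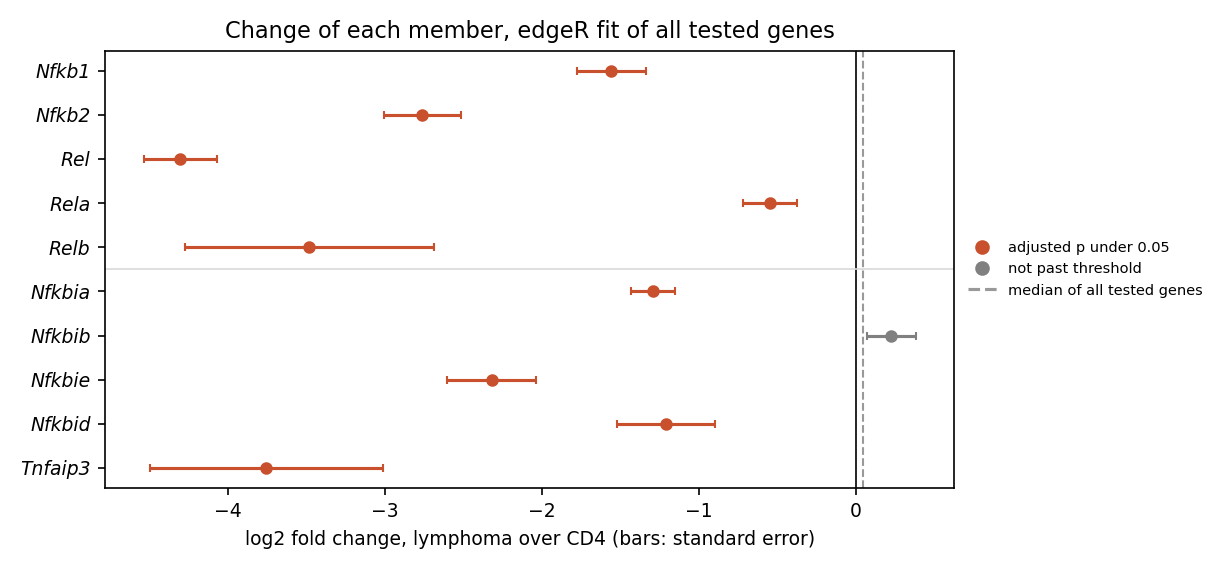
log2 fold change of each member, lymphoma over CD4 (horizontal axis), with standard errors from the edgeR fit of all tested genes; negative values are lower in lymphoma. The values run from -4.30 for Rel to 0.22 for Nfkbib, and the dashed line marks the median of all tested genes, 0.04.

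CD4 3 was at least 2-fold above both other CD4 libraries in Tnfaip3 and in no other member. A search for the same pattern in the upstream and target genes described below was made after the values of Tnfaip3 had been seen. It held for 6 of 100 tested pathway genes, against 6.31% of all tested genes, so the share was near the background. The 6 were Cd69 (91.6 CPM in CD4 3, against 26.8 and 24.0 in CD4 1 and 2), Junb (542 against 126 and 186), Nfkbiz (277 against 70.9 and 97.1), Cd40lg (159 against 66.5 and 74.6), Map3k8 (37.0 against 11.0 and 17.9) and Tnfrsf11a (7.16 against 1.91 and 3.12). Junb and Cd69 are known as early response genes of T cell activation. Among the members, Rel, Nfkbie and Nfkbid were also highest in CD4 3, short of 2-fold. They were 1.51-, 1.54- and 1.66-fold above the higher of CD4 1 and 2. Nfkbia (806 CPM in CD4 3, against 840 and 684) and the remaining members except Tnfaip3 were not highest there. What set Tnfaip3 and the 6 pathway genes apart in CD4 3 was not tested.

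Among the lymphomas, lymphoma 53 had the highest level of 5 members, Nfkb1, Rel, Relb, Nfkbie and Nfkbid, where 30.5% of all tested genes were highest in that library. Lymphomas 53 and 86 together held the highest levels of Relb and Nfkb2, a pattern found in 13% of tested genes. The spread among lymphomas differed between members, from a 1.18-fold range in Rela to a 3.54-fold range in Tnfaip3, and to a range in Relb that reached down to 1 count.

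Count ratios between members within a library do not depend on how libraries are scaled. The log2 ratio of Rela to Rel was higher in lymphoma than in CD4 by 3.78 on average (SD 0.424 in lymphoma and 0.583 in CD4), with no overlap. For Rela to Relb the difference was 3.82, with an SD of 2.28 in lymphoma. It was 2.98 (SD 1.07, n = 5) without lymphoma 34, whose 1 Relb count is under the limit of detection. Against Rel and against Relb, the balance of counts thus lay more on the side of Rela in every lymphoma than in any CD4 library. The difference was 1.09 for Rela to Nfkb1, where lymphoma 53 overlapped CD4. For Nfkb1 to Nfkb2 it was 1.18 with no overlap. Among inhibitors, the log2 ratio of Nfkbib to Nfkbia was higher in lymphoma by 1.52 (SD 0.108 and 0.270), and that of Nfkbib to Nfkbie by 2.54 (SD 0.382 and 0.531). Rela to Nfkbia was higher by 0.78 (SD 0.106 and 0.267). These ratios describe unequal change and have no test.

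**Figure D4:**
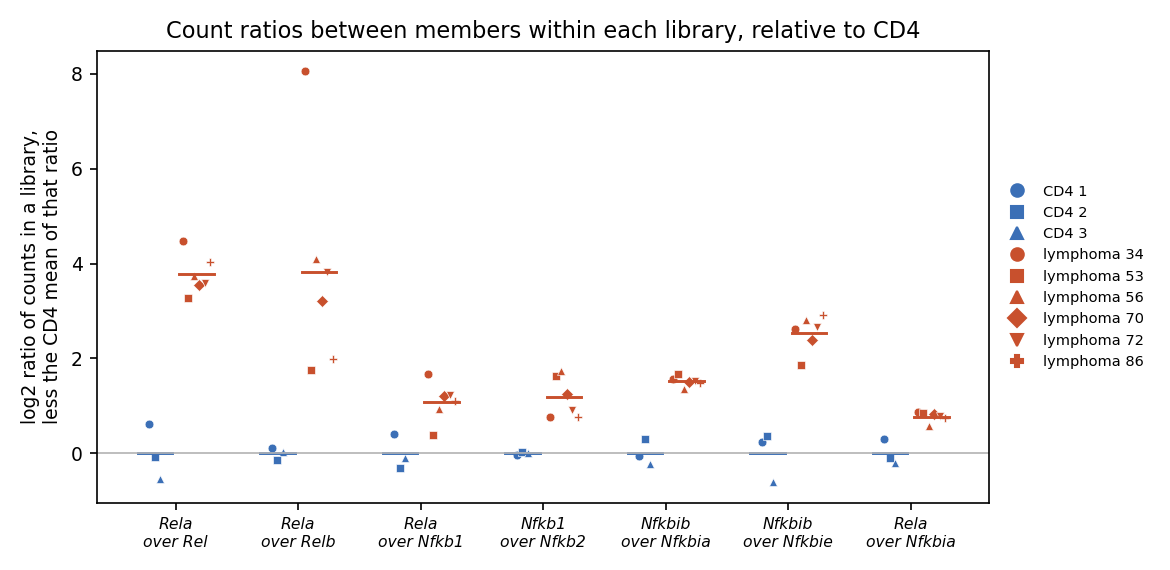
log2 ratio of the counts of pairs of members within each library, less the CD4 mean of that ratio (vertical axis, 0.5 added to each count); points are libraries and bars are group means. In all pairs except Rela over Nfkb1 every lymphoma lies above every CD4 library, and Rela over Relb reaches 8.05 in lymphoma 34.

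Genes that act before and after NF-kB were grouped into 7 lists written from general knowledge. Of their 106 genes, 100 were tested, 58 were lower and 10 higher in lymphoma by edgeR's adjusted p, and the median log2 fold change was -0.88. The 68% called compares with 46.6% of all tested genes, and the median with 0.04. By direction, 21.9% of all tested genes were called lower and 24.7% higher. The counts of every list below are to be read beside these shares.

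Of 8 other IkB proteins and regulators of RelA, 3 were higher and 2 lower (62.5% called, against 46.6% of all tested genes). The median log2 fold change was 0.33. When any 1 library was left out, 2 or 3 were higher. The genes that fell were Bcl3 and Nfkbiz, which encode the other nuclear IkB proteins of the group. Bcl3 stood at 26.8, 31.8 and 16.6 CPM in CD4 and at 0.144 to 1.19 CPM in lymphoma (log2 fold change -5.17, SE 0.522, edgeR adjusted p 1.24e-05). Nfkbiz stood at 70.9, 97.1 and 277 CPM in CD4 and at 2.75 to 9.59 CPM in lymphoma (log2 fold change -4.62, SE 0.463, edgeR adjusted p 2.17e-05, and -3.78 without CD4 3). Nkrf, which encodes a repressor that binds certain NF-kB promoters, rose by 1.96 on the log2 scale (SE 0.358). Commd1, whose product promotes removal of RelA, rose by 1.34 (SE 0.222). Nfkbil1 was the other gene that rose, by 0.75 (SE 0.275, edgeR adjusted p 0.0407).

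The IKK complex and the kinases before it were lower in 8 of 12 genes and higher in 1, with a median log2 fold change of -0.60. The catalytic subunits fell a little: Ikbkb by 0.61 (SE 0.146, edgeR adjusted p 0.00502) and Chuk by 0.56 (SE 0.183, edgeR adjusted p 0.0254). The regulatory subunit Ikbkg was at 21.1 to 28.4 CPM in CD4 and 16.5 to 29.0 CPM in lymphoma, with overlap (edgeR adjusted p 0.656). The largest falls were those of Map3k8, a kinase that IKK activates by freeing it from the Nfkb1 precursor, and of Map3k14, the kinase of the non-canonical branch. Map3k8 fell by 5.09 on the log2 scale (SE 0.485, edgeR adjusted p 8.41e-06) and by 4.48 without CD4 3. Map3k14 stood at 105, 93.2 and 89.4 CPM in CD4 and at 14.6 to 35.1 CPM in lymphoma (log2 fold change -2.17, SE 0.244, edgeR adjusted p 2.66e-05). The gene that rose was Tab1, an adaptor of the kinase encoded by Map3k7 (log2 fold change 1.69, SE 0.342, edgeR adjusted p 0.00169). Of these falls, 4 reached 2-fold.

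The branch from the antigen receptor to IKK was lower in 7 of 9 genes and higher in 0 (0 also at an unadjusted p under 0.05, with DESeq2 and with limma voom), with a median log2 fold change of -0.89. Prkcq, the kinase that links the T cell receptor to this branch, stood at 141, 197 and 195 CPM in CD4 and at 7.20 to 37.7 CPM in lymphoma (log2 fold change -3.09, SE 0.378, edgeR adjusted p 6.57e-05). Malt1, a scaffold and protease, fell by 2.29 on the log2 scale (SE 0.223, edgeR adjusted p 9.64e-06). Bcl10, which encodes its adaptor, fell by 1.91 (SE 0.229, edgeR adjusted p 4.26e-05). Without CD4 3, 4 of the 9 genes were lower.

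Ubiquitin adaptors and editors carry the signal from receptors to IKK and end it. Of 24 genes, 11 were lower and 2 higher, with a median log2 fold change of -0.48. Both directions together, 54.2% were called, against 46.6% of all tested genes. By direction, the shares of all tested genes were 21.9% lower and 24.7% higher. Traf1, an adaptor known as an NF-kB target in lymphocytes, stood at 225, 198 and 201 CPM in CD4 and at 0.946 to 8.86 CPM in lymphoma (log2 fold change -5.61, SE 0.483, edgeR adjusted p 8.36e-06). Traf5 fell by 3.13 (SE 0.250, edgeR adjusted p 2.21e-06). Ube2n, the conjugating enzyme that builds signalling ubiquitin chains, rose by 1.08 (SE 0.179). Fbxw11, a subunit of the ligase that marks IkB proteins for destruction, rose by 0.89 (SE 0.223, edgeR adjusted p 0.00635).

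TNF superfamily receptors were lower in 9 of 13 tested genes and higher in 2, with a median log2 fold change of -1.65. Cd40, a receptor of B cells and antigen-presenting cells that feeds the non-canonical branch, stood at 25.6, 23.0 and 23.3 CPM in CD4 and at 0.193 to 0.796 CPM in lymphoma (log2 fold change -5.82, SE 0.437, edgeR adjusted p 1.45e-06). The B cell list was lower in lymphoma in the same libraries (1254 to 1514 CPM in CD4 and 6.85 to 13.4 CPM in lymphoma). Tnfrsf25, known as a receptor of T cells, fell by 5.54 (SE 0.631, edgeR adjusted p 3.90e-05). Tnfrsf8, which encodes CD30, had 0 counts in each CD4 library. It was 22.2 CPM in lymphoma 53 and 0.262 to 1.10 CPM in the other 5. Against the 3 counts that a CD4 library with none allows, set at 0.360 CPM, the lymphoma mean was at least 11.8-fold higher, and at least 1.83-fold without lymphoma 53. The call of Tnfrsf8 (edgeR adjusted p 0.0391) was lost in 6 alternatives (limma voom, no filter, without CD4 1, 2 or 3, and a threshold of 0.01). Of 18 alternative fits, 5 gave no adjusted p for the gene. Over the 13 fits that did, it ranged from 0.0103 to 0.108.

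TNF superfamily ligands were lower in 5 of 9 tested genes and higher in 1. Their median log2 fold change of -2.19 was the lowest of the 7 lists. Tnfsf8, the ligand of CD30, stood at 64.1, 75.8 and 75.2 CPM in CD4 and at 0.0728 to 1.19 CPM in lymphoma (log2 fold change -7.21, SE 0.557, edgeR adjusted p 2.52e-06). Cd40lg, the helper T cell ligand of CD40, stood at 66.5, 74.6 and 159 CPM in CD4 and at 0 to 1.80 CPM in lymphoma (log2 fold change -7.00, SE 0.642, edgeR adjusted p 1.39e-05). Tnfsf10, which encodes the death ligand TRAIL, was the gene that rose (log2 fold change 1.03, SE 0.354, edgeR adjusted p 0.0318), with overlap between the groups.

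Genes known as NF-kB targets in lymphocytes, members left out, were lower in 16 of 25 tested genes and higher in 1, with a median log2 fold change of -1.83. Il2ra, the alpha chain of a receptor for interleukins and a marker of regulatory and activated T cells, stood at 55.1, 47.4 and 55.4 CPM in CD4 and at 0 to 0.393 CPM in lymphoma (log2 fold change -7.92, SE 0.541, edgeR adjusted p 7.33e-07). Lymphoma counts of Il2ra were 0 to 6, so the size of its fall rests on few reads. Foxp3 was at most 0.433 CPM in the same lymphomas and at least 26.2 CPM in CD4. Ccl5, a chemokine of effector T cells, fell by 6.09 (SE 0.563, edgeR adjusted p 1.38e-05). The gene that rose was Sod2, the mitochondrial superoxide dismutase, from 33.8, 23.8 and 37.0 CPM in CD4 to 78.4 to 163 CPM in lymphoma (log2 fold change 1.81, SE 0.262, edgeR adjusted p 0.000174). Many of these genes also answer to other factors, so the list does not measure NF-kB activity.

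**Figure D5:**
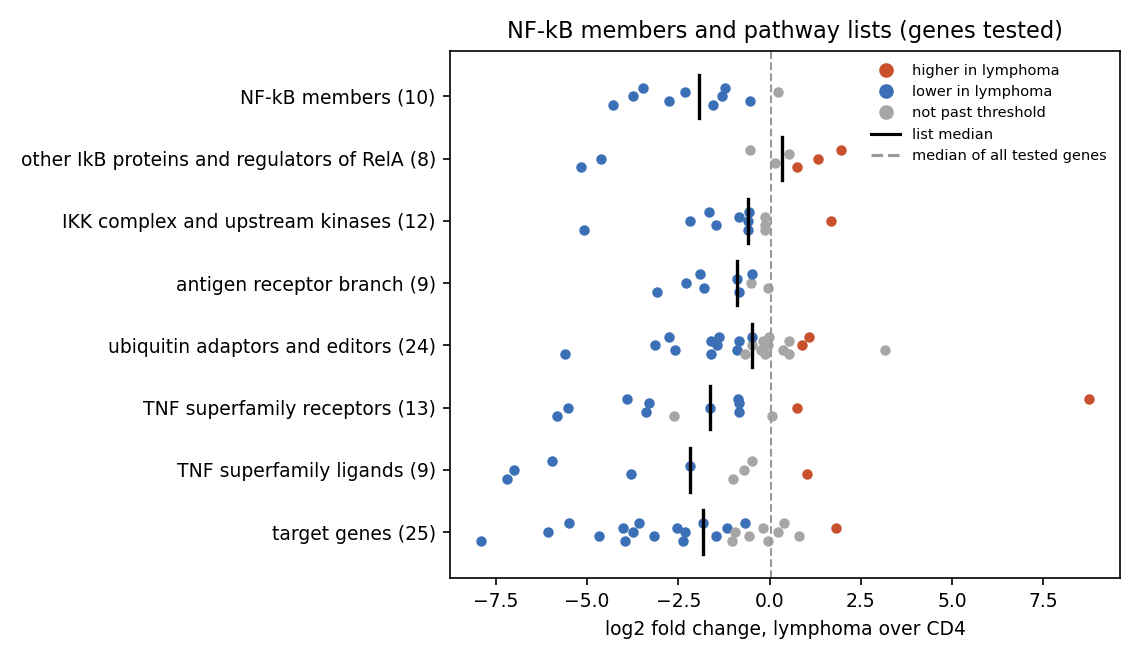
log2 fold change, lymphoma over CD4 (horizontal axis), of every tested gene in the member list and the 7 pathway lists; the number of genes tested is in brackets, black bars are list medians and the dashed line is the median of all tested genes. List medians run from -2.19 for the ligands to 0.33 for the other IkB proteins and regulators of RelA.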

How the data were processed

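The authors deposited a table of raw read counts per Ensembl gene for 9 libraries. The submitters' processing notes name FastQC, HISAT2, SAMtools and HTSeq and the builds mm10 and GRCm38, with no versions; the annotation and strand setting are not given in the sources used here. The 5 closing summary rows were left out, and 38.7 to 49.1% of reads in lymphoma and 27.8 to 35.0% in CD4 lay in genes.

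The test was that of edgeR 4.0.16 (R 4.3.3): filterByExpr with a minimum count of 10 (15401 genes kept), TMM scaling, and glmQLFit (robust) with glmQLFTest over all 9 libraries, with no covariate. The threshold was a Benjamini-Hochberg adjusted p of 0.05. A standard error is the size of a log2 fold change over the root of its F statistic. The fit was tested on simulated data. A count of 3 was taken as the limit that a count of 0 allows, per library. It covers counting error only. The sizes of some falls rest on few lymphoma counts, among them Cd40 (3 to 13), Tnfsf8 (1 to 15), Cd40lg (0 to 25) and Tnfrsf25 (1 to 28).

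Where a symbol had 2 rows, the row with more counts was used. Named pathway genes are, per list, the 2 genes that rose most and the 2 that fell most, past the threshold and with groups that do not overlap; Nfkbil1, Ikbkb, Chuk, Ikbkg, Bcl10, Tnfsf10 and the genes apart in CD4 3 were named after their values were seen. Some genes of the lists are not reported here by name. Members and lists were chosen with earlier results of these data known. Alternatives used DESeq2 1.42.0, limma 3.58.1, other scalings, filters and thresholds, and left-out libraries. Promoters came from RefSeq and annotation from GENCODE M21 (GRCm38).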

Additional observations from a re-analysis of the deposited data

Results flagged for a closer look

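In the 6 lymphomas, each member and each pathway gene named by rule (31 in all) was examined for a library standing apart: the distance to the next library, as a share of the range of all 6, was above 0.625, the 95% critical value of Dixon's test. This held for 5 genes (16.1%), where chance gives about 1 in 20, or 1.55 here. Over all 15401 tested genes it held for 16.8%, so the share was near that background. Lymphoma 53 was the library in 4 of the 5, and in 70.1% of such genes over all those tested. Nfkbid stood at 60.6 CPM in lymphoma 53, with the next lymphoma at 29.4 CPM, and Nfkbie at 9.59 CPM, with the next at 5.76 CPM. Tab1 stood at 55.2 CPM in lymphoma 53 (next 29.2 CPM) and Tnfrsf8 at 22.2 CPM (next 1.10 CPM). Ccl5 stood at 4.62 CPM in lymphoma 86, with the next lymphoma at 1.74 CPM.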

How the results depend on the processing

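No paired analysis was possible because the groups share no replicate number. Over 20 alternatives the number of members lower was 8 or 9 and the number higher 0. No member and no pathway gene named by rule changed direction. For members 193 of 199 comparisons kept their call, and the 6 lost concern Rela and Nfkbid. For pathway genes named by rule 400 of 407 kept it. Nfkbil1, Ikbkb, Chuk, Ikbkg, Bcl10 and Tnfsf10 were not among these genes. Upper quartile scaling shifted the median of all tested genes by -0.10, and no filter shifted it by 0.16. The number of pathway genes higher was 6 at an adjusted p under 0.01, against 10. Leaving out 1 library gave 7 to 10 higher and 48 to 62 lower pathway genes, and, over all tested genes, 3143 to 4207 higher and 2728 to 3930 lower.

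By list, leaving out 1 library gave 4 to 7 lower genes in the antigen receptor branch, 0 to 2 higher TNF receptors and 0 to 1 higher ligands. The number of higher TNF receptors was 1 with RLE, upper quartile or library size scaling, DESeq2, no filter or a 2-fold rule, and 0 with limma voom, at least 10 counts in every library, lymphomas 34, 70 and 72 summed or an adjusted p under 0.01. The single higher ligand was lost (0) with those lymphomas summed and at an adjusted p under 0.01. The 2-fold rule left 4 lower IKK genes, 4 lower antigen receptor genes and 1 higher ubiquitin gene. At least 10 counts in every library left 2 lower ligands and 10 lower targets, since fewer genes were tested. That filter also removed Relb, which had 1 count in lymphoma 34. Leaving out lymphoma 53 and CD4 3 together, and lymphoma 34 from the ratio of Rela to Relb, was chosen after seeing the data.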
